A study of Mus musculus with 96 samples.

Results

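Cdh1 and Gja1 encode E-cadherin of adherens junctions and connexin 43 of gap junctions, and they were 2 of the 96 assays on the chip. They were picked by name, not by their values, Cdh1 from the assay for CD324 and Gja1 from the assay called cnx43. The material was 1 group of 96 single cells, all from mouse uterus of postnatal day 7 digested with type I collagenase and sorted as CD326+, the surface protein made from Epcam. Each well held 1 cell. No treatment, control or genotype is named, nor is a strain or how many animals were used. A group of cells without named animals counts as 1 sample, so every comparison is a description of these cells and carries no p-value. Intervals beside shares are exact (Clopper-Pearson), at 95%, and cover counting error only.

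E-cadherin is a calcium-dependent adhesion protein that binds the same protein on the neighbouring cell, while its tail holds beta-catenin and links the adherens junction to actin. It is a defining gene of epithelium and is lost when epithelial cells take on mesenchymal traits. Connexin 43 forms channels that dock between neighbouring cells and pass ions and small molecules. In the mature uterus it is best known from smooth muscle before labour and from stroma during decidualisation, whereas other connexins are more typical of the lining epithelium.

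The start of Gja1 is shown as the regulatory sequence of the member whose table entry could be matched. The sequence is RefSeq's, for build GRCm38.p6, at chr10:56377050-56377349 on the plus strand, and it runs from 250 bases before the annotated start to 50 after it. Of the 2 genes, 1 matched an entry of that table. Capitals mark the letters TGAGTCA, the motif known for AP-1 (Fos and Jun) proteins, searched on both strands, where the reverse strand reads TGACTCA. It occurred 1 time here, ending 12 bases before the start.

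Gja1: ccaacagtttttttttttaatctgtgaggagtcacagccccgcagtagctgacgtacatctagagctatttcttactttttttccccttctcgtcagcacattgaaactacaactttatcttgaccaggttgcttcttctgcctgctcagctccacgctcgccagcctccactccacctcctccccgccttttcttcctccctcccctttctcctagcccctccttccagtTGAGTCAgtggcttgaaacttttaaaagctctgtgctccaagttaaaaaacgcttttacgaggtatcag

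The same letters, on either strand, were present in 1709 of 32851 promoter windows of that length (5.20%). No assay analysed here was for a Fos or Jun gene, so the values below do not bear on the motif.

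Detection was clear-cut for both genes. A gene counted as detected when its cycle threshold (Ct, the PCR cycle at which product appears, lower for more template) was below 28. A value of 40 stands for no Ct. Cdh1 was detected in 85 of 96 cells (88.5%, interval 80.4 to 94.1%), with Ct values from 14.3 through a median of 17.5 to 23.6, and the other 11 cells had no Ct. Gja1 was detected in 62 cells (64.6%, interval 54.2 to 74.1%), with Ct values from 15.8 through a median of 18.6 to 24.1, and the other 34 had no Ct. For neither gene was any higher Ct recorded, so the cells fell into a detecting and an empty class and the limit of 28 lay in the gap between them. Both genes passed 50% of cells, and 53 of the 96 assays (55.2%) did so. Of those 53 assays, 22 had no recorded Ct at or above 24 and 34 had at most 1 above 24, so the gap was common on this chip.

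In the order of assays by number of cells, Cdh1 stood 11th with 5 others at 85 cells, among them Ctnnb1, the gene of its partner beta-catenin. Next above it were Cd24a, Krt8 and Fzd7 with 87 cells each, and next below Nt5e with 83, Itgb1 with 82 and Dppa2 with 82. Gja1 shared 62 cells with Ezh2 and Enpep. It lay below Tdgf1 (67), Hprt (64) and Itga3 (63) and above Cd55 (61), Msi1 (58) and, with 57 each, Ptprc, Lgr6 and Sall4. The counting intervals of each member overlapped those of all these neighbours, so the order among them is not settled, while those of Cdh1 and Gja1 did not overlap. All assays were read in the same cells, a pairing that these separate intervals leave out.

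The log2 level of a gene is 28 minus its Ct. Over detecting cells, the Cdh1 level ran from 4.44 to 13.69 with a median of 10.48 and a mean of 9.93 ± 2.35 (SD, n = 85 cells). The Gja1 level ran from 3.86 to 12.19 with a median of 9.41 and a mean of 9.09 ± 1.86 (SD, n = 62 cells). Primers may differ in efficiency, so levels of the 2 genes are not set against each other. Among these 53 more frequent assays, 37 had a smaller SD than Cdh1 and 15 a smaller SD than Gja1, against a median SD of 2.09. The Cdh1 level thus varied more between detecting cells than that of most frequent assays, and the Gja1 level less.

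Coverage differed between cells. The number of assays detected per cell ran from 9 through a median of 54 to 78, and 8 cells had a Gapdh Ct above 18 or none (Gapdh is a glycolytic enzyme gene used as a measure of material). Of these 8 cells, 5 lacked Cdh1 and 7 lacked Gja1. In cell 67 the first 71 assays of the table, which include both genes, had no value, so its 2 blanks carry no information on either gene. In the other 88 cells Cdh1 was detected in 82 and Gja1 in 61.

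Both genes were found more often where Gapdh came early, with the larger difference in percentage points for Gja1. From the 24 cells with the earliest Gapdh to the 24 with the latest, in 4 bins, Cdh1 was detected in 24, 21, 22 and 18 cells. Over the same bins Gja1 was detected in 20, 19, 14 and 9 cells. The difference between the earliest and the latest bin was 45.8 percentage points for Gja1 and 25.0 for Cdh1, and the median over the 96 assays was 29.2. Cdh1 was in all 24 cells of the earliest bin, a ceiling, so the differences of the 2 genes are not directly comparable. The latest bin also counts cell 67, whose blanks carry no information. The part of coverage in the Gja1 share was not tested.

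**Figure D1:**
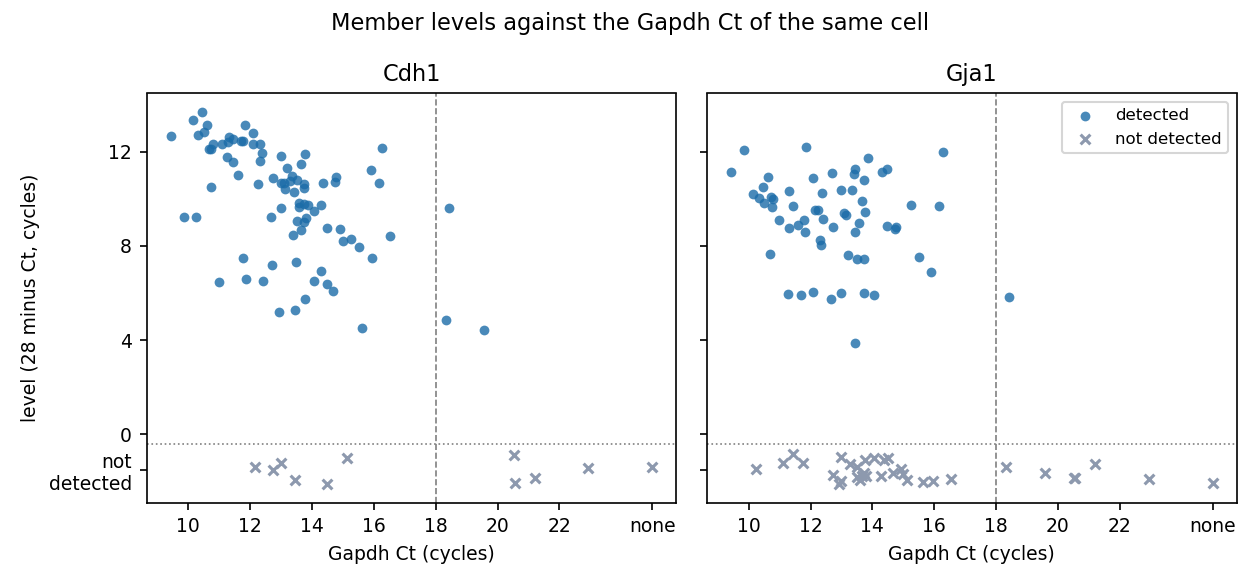
The level of Cdh1 (left) and of Gja1 (right), as 28 minus Ct in cycles, is plotted against the Gapdh Ct of the same cell, 1 point per cell, with cells without a Ct as crosses in the band below 0 (scattered for legibility) and the dashed line at a Gapdh Ct of 18. The Cdh1 level falls as Gapdh comes later (rho of the 2 Ct values 0.54 in 82 cells), the Gja1 level hardly does (0.15 in 61 cells), and cells without Gja1 occur at nearly every Gapdh Ct.

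The levels of Cdh1 and Gja1 behaved differently. Over the cells that detected the gene and had a Gapdh Ct of at most 18, the Ct of Cdh1 followed that of Gapdh with a Spearman rho of 0.54 (Pearson r = 0.47, n = 82 cells), and r was 0.45 without the 2 cells farthest from the median Gapdh Ct. For Gja1 rho was 0.15 (r = 0.14, n = 61 cells), with r = 0.23 without the 2 farthest cells. Over 52 assays the median rho was 0.61 and the range -0.01 to 0.77, and Gja1 was 50th in that order, Cdh1 31st. Subtracting the Gapdh Ct lowered the SD of the Cdh1 Ct to 2.07, against 2.24 without it. It raised that of Gja1 to 2.27, against 1.83 without it, and it lowered the SD for 41 of the 52 assays. When Gja1 was detected, its level was thus little tied to the amount of Gapdh.

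The classes of cells were uneven. Both genes were detected in 57 of 96 cells (59.4%, interval 48.9 to 69.3%), Cdh1 without Gja1 in 28, Gja1 without Cdh1 in 5 and neither in 6. If the genes were spread independently, the product of their shares would give 54.9 cells with both. In the 88 cells with a Gapdh Ct of at most 18, the count was 56 cells with both and the product 56.8. Gja1 was found in 68.3% of the cells with Cdh1 (56 of 82, interval 57.1 to 78.1%) and in 5 of the 6 without it (interval 35.9 to 99.6%), so that the intervals overlapped widely. Detection of connexin 43 was thus not shown to go with, or against, detection of E-cadherin.

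Nor were their levels shown to move together in the cells with both genes. In the 57 cells with both genes the rho of the levels was 0.07 and Pearson's r was 0.09, and r was 0.0097 without the 2 cells farthest from the median Cdh1 level. Over all 96 cells, with undetected genes at level 0 and the trend with the count of detected assays subtracted, rho was 0.21 and r 0.062 (0.13 without the 2 farthest cells). The 2 values of a point share the cell and its depth. Cdh1 levels were also higher where Gja1 was found, with a median of 10.95 (5.27 to 13.69, 56 cells) against 9.11 without Gja1 (4.52 to 12.33, 26 cells). The ranges overlapped almost wholly. Gapdh moved the same way, with a median Ct of 12.5 in the cells with both and 13.7 in those with Cdh1 alone, and its part was not tested.

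**Figure D2:**
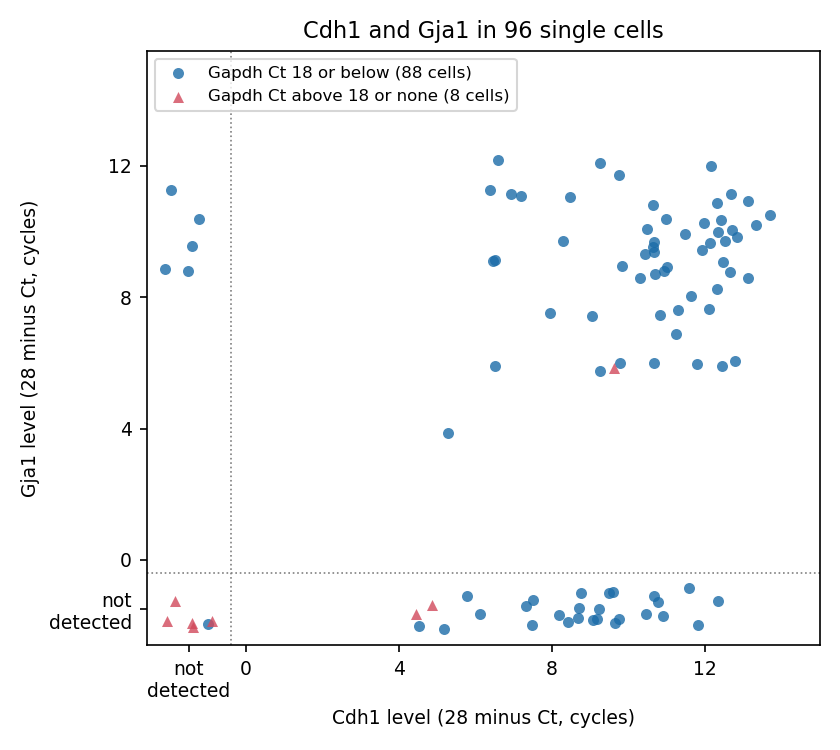
Each point is 1 of 96 cells, placed by its Cdh1 level (horizontal) and Gja1 level (vertical), both as 28 minus Ct in cycles, with undetected genes in bands below 0, scattered for legibility, and triangles for the 8 cells with a Gapdh Ct above 18 or none. The 57 cells with both genes form a cloud with no slope (rho = 0.07), 28 cells have Cdh1 alone, and the 5 cells with Gja1 alone have Gja1 levels within the range of the others.

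The genes whose levels were most like that of Cdh1 included Krt18, Cd24a and Epcam, 3 of the 5 listed epithelial genes. Likeness was measured as the Spearman rho of residual levels over 96 cells, with the linear trend on detected assays per cell removed, for 85 assays in at least 10% of cells, and the cells share their depth. With Cdh1, 6 of 85 assays (7.06%) had a rho of at least 0.5. They were Cd9, a tetraspanin gene (0.73), Cd24a, a surface glycoprotein gene (0.71), Krt18, a keratin gene of simple epithelium (0.66), Epcam, the gene of the sorted antigen (0.62), Itga6, an integrin gene of the basal surface (0.58), and Wnt7a, a WNT ligand gene of uterine epithelium (0.52). Next came actin (0.49) and Cd55, a complement regulator gene (0.44). Pearson's r for these 8 ran from 0.36 for actin to 0.68 for Cd9, and over the cells with both genes of a pair rho ran from 0.53 for Cd55 to 0.79 for Cd9. The latter measure had no fit on detected assays, and its median with Cdh1 was 0.31. Assays outside the 8 lay in the same range, among them Krt19 (0.71) and Hprt (0.66). Relative to Gapdh, the rho with Cdh1 was 0.67 for Cd9, 0.52 for Cd24a and 0.31 for Epcam. With Gja1 the values for the same genes were 0.28, 0.31 and 0.02.

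With Gja1, 0 of 85 assays (0%) reached a rho of 0.5. The highest were Itgb1, the beta-1 integrin gene (0.39), Cd164, a sialomucin gene (0.34), Itga5, the integrin partner of beta-1 in the fibronectin receptor (0.31), and Ctnnb1 (0.30). Klf4 (0.26), actin (0.26), Itga6 (0.23) and Fzd7 (0.22) followed. Such values are weak, and over the cells with both genes of a pair they lay between 0.04 for actin and 0.33 for Fzd7. The median absolute rho over the 85 assays was 0.09 for Gja1 and 0.20 for Cdh1. None of these 85 assays therefore had a pattern close to that of Gja1.

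By gene list, the 5 epithelial adhesion and keratin genes had a median rho of 0.62 with Cdh1 (range 0.29 for Krt8 to 0.71 for Cd24a, with Krt19 at 0.38) and 3 of 5 reached 0.5. With Gja1 their median was 0.12 and none of the 5 reached 0.5, and the difference between Cdh1 and Gja1 was not tested. Over all 85 assays the medians were 0.08 for Cdh1 and 0.02 for Gja1. The 3 reference genes had a median of 0.42 with Cdh1 (actin 0.49, Hprt 0.42, Gapdh 0.26) and of 0.12 with Gja1. Krt19 and Krt8 thus lay below actin and Hprt in likeness to Cdh1. Of the 6 other measured genes on the list of adhesion between cells, which shares Epcam (0.62) with the epithelial list, Ctnnb1 had a rho of 0.39 with Cdh1, whereas Alcam (0.14), Ncam1 (0.11), Pecam1 (-0.09) and Mcam (-0.09) were near 0. Of 7 genes of adhesion to matrix, 1 reached 0.5 with Cdh1, Itga6, while Itga5 was at -0.11 with Cdh1 and 0.31 with Gja1. Of the 6 patterning genes of the female tract with a value, Wnt7a reached 0.5, Pax2 was at 0.29, Emx2 at 0.14, and Hoxa11 was at -0.30. Gland, basal and steroid receptor genes had weak or negative values, from -0.25 for Esr1 to 0.18 for Sox9.

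The lowest values with Cdh1 were those of Tbx3, a T-box transcription factor gene (rho = -0.41, r = -0.66), Enpep, an aminopeptidase gene (-0.39), and Ptprc, the leukocyte phosphatase gene (-0.35). Over the cells with both genes of a pair the rho was 0.15 for Enpep, 0.29 for Ptprc and -0.39 for Tbx3 (15 cells). The lowest with Gja1 were Anpep (-0.22), Cd40 (-0.21) and Abcg2 (-0.19), while Tbx3 was at 0.20.

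**Figure D3:**
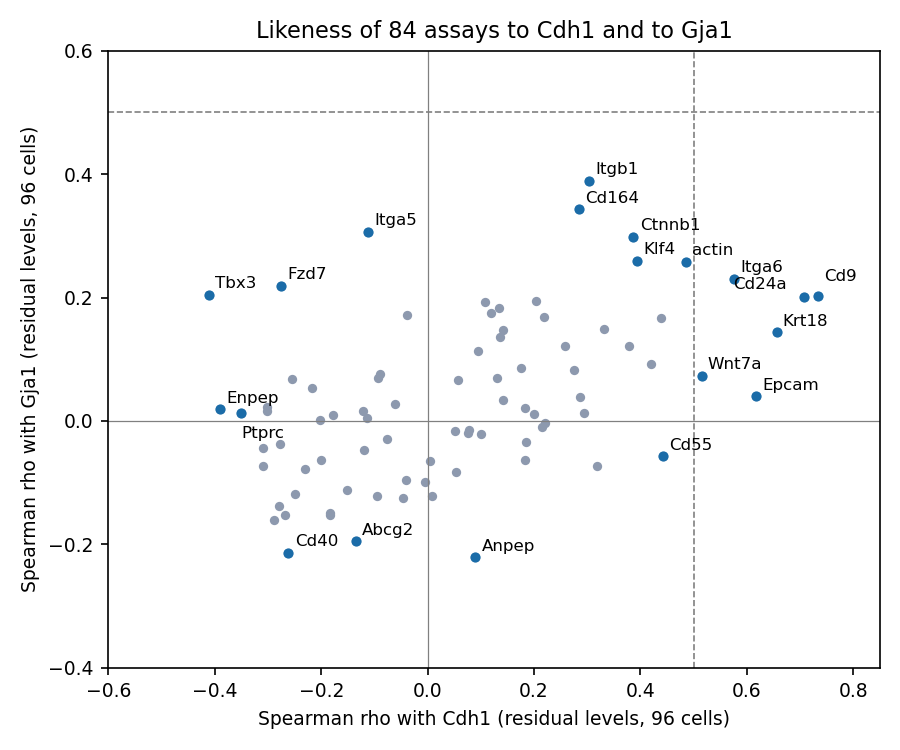
Each point is 1 of 84 assays found in at least 10% of cells, placed by its Spearman rho with Cdh1 (horizontal) and with Gja1 (vertical) over residual levels in 96 cells, with dashed lines at 0.5. Cd9, Cd24a, Krt18, Epcam, Itga6 and Wnt7a lie right of 0.5 for Cdh1, no assay lies above 0.5 for Gja1, and Tbx3 is lowest for Cdh1 at -0.41.

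The 11 cells without Cdh1 were split by detection of Gja1. In 6 of them Gja1 had no Ct either: cells 1, 34, 49, 67, 73 and 86, which detected 15, 22, 16, 16, 13 and 9 assays. The other 5, cells 10, 58, 81, 82 and 93, detected 49, 54, 51, 55 and 66 assays, with Gapdh Ct values of 13.0, 12.7, 14.5, 13.5 and 12.2. Those 5 were picked as the cells with Gja1 but no Cdh1, so Gja1 in all 5 is no result. Their Gja1 levels were 10.37, 8.79, 8.86, 11.26 and 9.54, inside the range of 3.86 to 12.19 in the 56 cells with both genes. That the split also parts the cells by detected assays was seen only after the values were known. Cell 34 had a Gapdh Ct of 15.1, and cells 25, 87 and 52 detected Cdh1 with 16, 20 and 24 detected assays. The part of coverage in the 6 cells without either gene was not tested.

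Among assays present in 41 or more of the 82 cells with Cdh1 and a Gapdh Ct of at most 18, only Cd55, Wnt7a and Cdh1 itself were absent from all 5 of these cells. Cd55 was found in 60 of the 82 and Wnt7a in 52. Tbx3 was found in 15 of the 82 cells with Cdh1, at levels of 2.14 to 12.48, against all 5 of these cells, at 10.52, 10.08, 10.76, 10.18 and 8.70. In cell 34, the sixth cell without Cdh1 among the 88, the Tbx3 level was 1.04, close to the detection limit. Tbx3 was singled out for its low rho with Cdh1, so these counts describe that pattern once more and are no further evidence of it. Among the 88 cells, Gja1 was found in 17 of the 21 with Tbx3 (81.0%, interval 58.1 to 94.6%) and in 44 of the 67 without Tbx3 (65.7%, interval 53.1 to 76.8%), intervals that overlap.

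Vim, the intermediate filament gene of mesenchyme, was detected in 2 of the 82 cells with Cdh1 and in 4 of these 5, at levels of 5.15, 1.91, 2.53 and 5.39. This assay gave a Ct in only 7 of the 96 cells, 4 of these Ct values above 24, and 5.39 was its highest level. The levels of 1.91 and 2.53 were thus close to the detection limit. Eng, a co-receptor gene of endothelium and stroma, was found in 10 of the 82 and in 3 of the 5. Other stromal genes gave mixed counts: Thy1 was in 15 of the 82 and 1 of the 5, Mcam in 12 and 2, sma in 63 and 3, Nt5e in 78 and 4, and Mme in 68 and 3. The endothelial gene Pecam1 was in all 82 and all 5, Cd34 in 44 and 4, and the leukocyte gene Ptprc in 53 and 4. Over all 96 cells, 49 of the 95 other assays (51.6%) had a share at least 20 percentage points higher with Cdh1 than without it, and 4 (4.21%) a share that much lower. In the 88 cells, 23 (24.2%) were higher by that much and 12 (12.6%) lower. Eng was 1 of these 12, and those with a larger difference than Eng were Tbx3, Vim, Itga1 and Abcg2. Itga1 was in 5 of the 82 cells and 3 of the 6 without Cdh1, and Abcg2 in 20 and 4. The group without Cdh1 holds only 6 cells, so shares in it move in steps of 1 in 6.

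Keratins were still present in the cells without Cdh1. Krt18 was detected in 81 of the 82 cells with Cdh1 and in all 5, with a median level of 12.98 in the detecting cells with Cdh1 and levels of 6.16 to 9.23 in the 5. Krt19 was in 81 of the 82 and in all 5, with a median of 8.87 and levels of 6.70 to 8.72. Krt8 was in 79 of the 82 and 4 of the 5. Cd24a was in 80 of the 82, with a median of 12.21, and in 4 of the 5, none above 9.60. Epcam, whose protein was used for the sort, was in 67 of the 82, with a median of 7.39, and in 3 of the 5, at 4.59, 3.18 and 3.45. Each of these 3 Epcam levels lay below that median, and Esr1 and Ctnnb1 were detected in all 5 cells. The 5 cells thus had no Ct for Cdh1 while holding Krt18 and Krt19, each at a level below the median of the cells with Cdh1. Krt8 was not below it throughout, with 10.82 in cell 58 against a median of 9.84 in the cells with Cdh1.

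**Figure D4:**
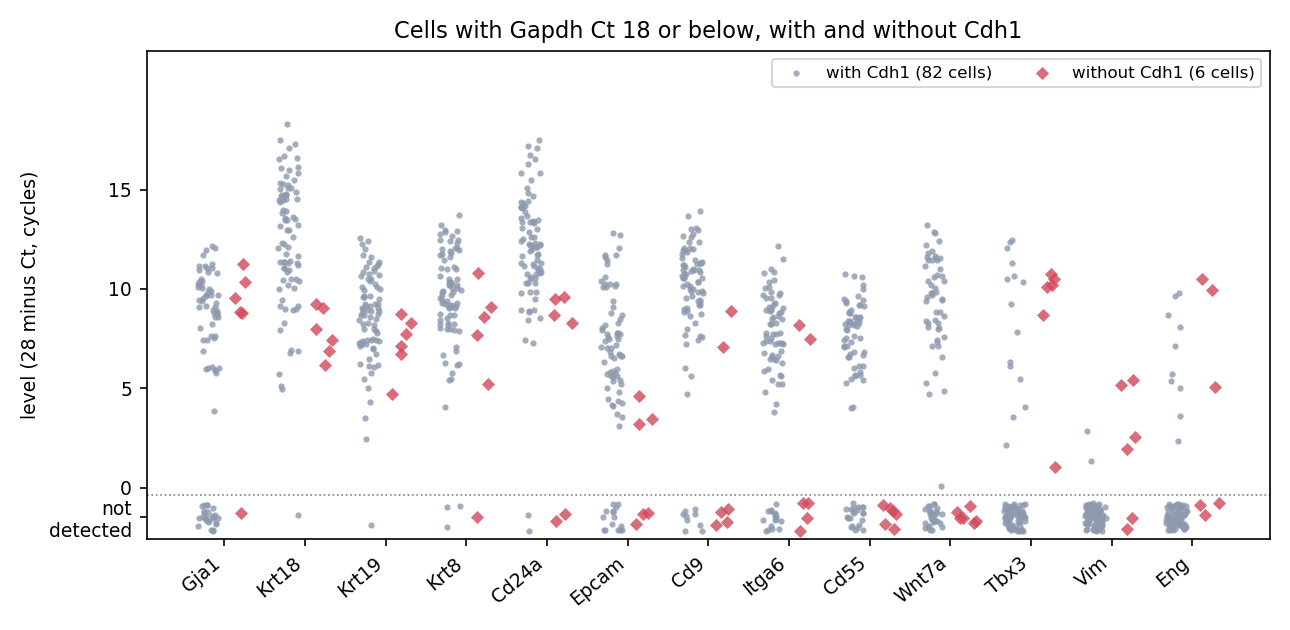
For 13 genes the level (28 minus Ct, cycles) is plotted for each of the 82 cells with Cdh1 (grey, left of each pair) and the 6 cells without Cdh1 (red, right), all with a Gapdh Ct of at most 18, with undetected genes in the band below 0, scattered for legibility. Of the 6 cells without Cdh1, 5 have Tbx3 at 8.70 to 10.76 and cell 34, with 22 detected assays, has it at 1.04, none of the 6 has Cd55 or Wnt7a, and their Krt18 levels (6.16 to 9.23) lie below the median of 12.98 of the cells with Cdh1. The rho with Cdh1 of Tbx3, Cd55, Wnt7a and Krt18 already included these cells.

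Among the 82 cells with Cdh1, several of the genes named above were counted by the level of Cdh1. Epcam, Wnt7a, Cd55, Cd9 and Itga6 are among the 8 assays highest in rho with Cdh1, and Tbx3 is the lowest. That rho used these same cells, so the counts of these genes describe the ranking once more and are no further evidence of it. In 4 bins from the lowest Cdh1 level (4.52 to 8.69) to the highest (12.10 to 13.69), with 21, 21, 20 and 20 cells, Epcam was found in 9, 19, 19 and 20 cells. Wnt7a was found in 4, 15, 14 and 19, Cd55 in 8, 17, 18 and 17, Cd9 in 14, 19, 20 and 20 and Itga6 in 6, 20, 19 and 20. The counts of these 5 genes were lowest in the first bin and, but for Wnt7a, changed little over the other 3. Tbx3 was found in 8, 3, 0 and 4 cells and Eng in 7, 2, 0 and 1, both highest in the first bin. Itga5 was found in 9, 7, 10 and 14. Gja1 was found in 11, 11, 15 and 19 of these cells. The median number of detected assays was 48, 54, 53 and 62 and the median Gapdh Ct 13.8, 13.6, 13.2 and 11.2, and the part of coverage in these counts was not tested.

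Most other assays had a higher share in cells with Gja1 than in cells without it, 87 of 95 in all cells and 68 of 95 in the 88 with a Gapdh Ct of at most 18, where the median difference was 5.53 percentage points. In all 96 cells, 23 of 95 assays (24.2%) had a share at least 20 points higher with Gja1 than without it and 0 (0%) a share that much lower. In the 88 cells these were 6 (6.32%) and 0 (0%). The 6 were Itga5, in 37 of 61 cells with Gja1 and 7 of 27 without, Itga3 (48 of 61 and 12 of 27), Emx2, a homeobox gene (33 and 7), Nes, the nestin gene (21 and 2), Itga6 (51 and 16) and Msi1, an RNA-binding protein gene (44 and 14). The other integrin alpha assays, Itga1, Itgae and Itga2, were higher with Gja1 by 13.1, 13.0 and 8.14 points. The cells with Gja1 detected a median of 56 assays and those without it 50, with median Gapdh Ct values of 12.7 and 13.7, and the part of coverage was not tested.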

How the data were processed

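Quantitative PCR with a DNA dye was run for 96 assays in 96 cells on a Fluidigm Biomark chip, after lysis and preamplification with a 1-step kit, per the labels' protocols. The deposited table holds raw Ct values, entered here as a score, per the file headers, with 40 where none was recorded. A second deposited table gives each value as a ratio (fold), per the file headers, which for both genes matched the Ct values to within 3.22e-07 on the log2 scale. The sources used here name no baseline settings, quality filters or primers, and amplification of a related sequence was not tested.

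Detection meant a Ct below 28. All cells were kept, and no cell was removed as a doublet. Residuals came from a linear fit on detected assays. The 8 assays highest and the 3 lowest in rho, the 3 neighbours by share on each side and the listed genes were named. Nes, named in a complete set of 6, and the 5 cells with Gja1 but without Cdh1 were singled out after their values were seen. The genes and lists were chosen with earlier results of these data known. Gene names came from RefSeq symbols and synonyms (GRCm38.p6) or CD designations. The likeness ranking was run on simulated data in which 8 frequent assays shared a strong factor with the target. Such a setting does not test the ranking where likeness is weak, as with Gja1, or for less frequent assays. Alternatives were other Ct limits, cell subsets, Pearson's r, no fit and levels relative to Gapdh. The tools were scipy 1.17.1, pandas 2.3.3, numpy 2.4.6 and matplotlib 3.10.9 under Python 3.11.15.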

Additional observations from a re-analysis of the deposited data

How the results depend on the processing

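Of 78 alternative values, 64 lay within the exact interval of a share, 1 SD of a level, 1.5 times a count or 0.1 of a rho, and 14 moved. Neither share changed with a Ct limit of 26 or any recorded Ct, and with 24 the Gja1 share was 63.5%. The Cdh1 share was 95.2% in the 63 cells with all reference genes (Gapdh, actin, Hprt) and 94.6% in the 74 with Epcam, against 88.5% in all cells. The rho between the levels, 0.21 in all cells, was 0.35 in the cells with all reference genes, 0.33 without the fit, 0.062 as Pearson's r and 0.072 in the cells with both genes. Mean levels were -4.91 for Cdh1 and -6.13 for Gja1 relative to Gapdh, which follows from the scale. Of the 8 assays most like Gja1, 5 remained with all reference genes, 5 with Epcam and 5 without the fit, 2 relative to Gapdh and 0 in the cells with both genes. Of the 8 most like Cdh1, 5 remained relative to Gapdh and 6 to 8 under the other alternatives. The causes were not tested. Groups of cells could not be paired because all cells form 1 group, while the 2 genes were read in the same cells. An undetected gene may be low or missed.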

Other observations

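Gja1 detection differed along the cell numbers of the table. In 8 runs of 12 consecutive cell numbers, Gja1 was detected in 9, 11, 4, 6, 9, 9, 9 and 5 cells, and Cdh1 in 10, 12, 11, 12, 10, 11, 9 and 10. The range over runs was 7 cells for Gja1 and 3 for Cdh1, with a median of 4 over the 96 assays, and 5 assays, Gja1 included, had a range of at least 7. The runs with 4, 6 and 5 Gja1 cells had medians of 50.5, 54 and 55.5 detected assays, within the 50.5 to 58.5 of all runs. What the numbers stand for on the plate or chip is not given in the sources used here, and the runs were chosen after the values were seen.

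Cell 61 carried Cdh1, Gja1 and Tbx3 together at levels of 13.13, 8.58 and 10.37, and cell 59 at 9.25, 12.08 and 12.48. High Tbx3 was therefore not tied to absence of Cdh1 in every cell. Cell 70, with Tbx3 at 12.38 and Cdh1 at 9.22, had no Ct for Gja1.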
